A study of Rattus norvegicus with 35 samples.

Results

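Slow-twitch muscle genes were followed in the mammary glands of weanling rats. They are 9 genes of the slow, oxidative muscle fibre (Tnni1, Tnnt1, Myh7, Myh6, Myoz2, Mb, Csrp3, Ankrd2 and Casq2), found by their gene name among 35561 gene names on the array, and each is measured by 1 probe of 41012. They were chosen because earlier work on these data had shown them lower with the higher dose of bisphenol A and with either dietary compound added to the lower dose. In those 3 comparisons the members' values are therefore a description. The probes that passed the fit over the whole array are counted there as its background, and a member among them restates the choice. The other comparisons share arrays with them.

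RNA came from the left abdominal mammary gland of Sprague-Dawley daughters at postnatal day 21, and 35 arrays fall into 7 groups of 5. Dams of 6 groups received bisphenol A (BPA), a plastics monomer that binds oestrogen receptors, by gavage from gestational day 10 to 21, at 25 µg/kg/day (BPA25) or 250 µg/kg/day (BPA250). At each dose 1 group of dams ate chow with 250 mg/kg of genistein, an oestrogen-like isoflavone from soy, or about 5.5 mg/kg/day. Another ate chow with 2000 mg/kg of indole-3-carbinol (I3C), which comes from cabbages and their relatives, or about 45.0 mg/kg/day. The groups are BPA25+genistein, BPA250+genistein, BPA25+I3C, BPA250+I3C, BPA25, BPA250 and the negative control. No group had genistein or I3C without BPA, so each diet was set against its own BPA dose. The pups came from different litters, and which pups shared a litter is not given.

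Skeletal muscle contracts when calcium, released from stores bound to calsequestrin, reaches the troponin complex on the thin filament and lets myosin heads pull. Slow fibres use their own versions of these proteins, are rich in mitochondria and in the oxygen carrier myoglobin, and resist fatigue. Fast fibres use a second set of versions. The gland itself holds epithelium in a fat pad, and the abdominal pad lies beneath skin with its thin cutaneous muscle and above the muscle of the body wall. In a bulk sample, fewer muscle fibres in the piece and less of a transcript per fibre cannot be told apart.

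By role, Tnni1 (slow troponin I) and Tnnt1 (slow troponin T) belong to the thin filament. Myh7 (slow or beta-cardiac myosin heavy chain) and Myh6 (alpha-cardiac myosin heavy chain) are the motors of the thick filament. Myoz2 (calsarcin 1) and Csrp3 (muscle LIM protein) sit at the Z-disc. Ankrd2 is a stretch-responsive ankyrin repeat protein of slow muscle, Mb is myoglobin, and Casq2 is the calsequestrin of slow and cardiac muscle. In the GRCr8 assembly, Myh6 (chr15:32388102-32413663) and Myh7 (chr15:32416525-32439851) are neighbours. Tnnt1 (chr1:78349035-78359394), Csrp3 (chr1:107664338-107682916) and Ankrd2 (chr1:250796419-250805867) share chromosome 1. Myoz2 (chr2:213826052-213852778) and Casq2 (chr2:192214556-192270821) share chromosome 2. Tnni1 lies at chr13:49781529-49793385 and Mb at chr7:110640511-110647742.

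The probes of the 2 cardiac-type myosins are shown because a stretch of each is the same, which bears on how far these genes can be read apart. Capitals mark the shared run of 27 bases, at positions 1 to 27 of the Myh7 probe and 12 to 38 of the Myh6 probe, counted from the 5′ end. The probes of Tnni1 and Myoz2, the members with the largest differences for their error, are set below them.
Myh7: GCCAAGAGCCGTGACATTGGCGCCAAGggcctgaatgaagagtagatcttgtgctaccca
Myh6: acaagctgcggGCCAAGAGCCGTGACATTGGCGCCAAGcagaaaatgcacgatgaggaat
Tnni1: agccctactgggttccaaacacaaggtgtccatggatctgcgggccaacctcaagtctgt
Myoz2: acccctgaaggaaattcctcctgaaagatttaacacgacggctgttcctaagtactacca
All are 60 bases long. No other pair of member probes shared a run over 11 bases. Against the rest of the array, the Tnni1 probe shared a run of 14 bases with 1 probe and the Csrp3 probe a run of 15 with 1 probe. The Tnnt1 probe shared runs of 17 and 15 bases with 2 probes, and the Myoz2, Mb, Ankrd2 and Casq2 probes shared no run of 14 or more.

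Promoter windows of 8 members were found in the RefSeq table for GRCr8 (250 bases before to 50 after the start used there). Those of Myh7 (chr15:32438145-32438444) and Myh6 (chr15:32411648-32411947), both on the minus strand, lie inside the gene spans given above. Their matches are therefore not at the outer start of the gene. Windows were searched on both strands for letters that muscle transcription factors are known to bind. The E-box CANNTG was in 8 of 8 windows, and in 72.1% of 33469 promoters. CATTCC, the core of the MCAT element bound by TEAD factors, was in the Myh6 window alone, against 14.2% of promoters. The MEF2 element was in 2 of 8 windows, those of Myoz2 and Casq2, against 3.29% of promoters, and the CArG box bound by serum response factor was in 0 of 8, against 1.64%. The 250 bases before the start of both genes with a MEF2 element are given with that element in capitals. It begins 53 bases before the start in Myoz2 (chr2:213852779-213853028, minus strand) and 149 before it in Casq2 (chr2:192214306-192214555, plus strand).
Myoz2: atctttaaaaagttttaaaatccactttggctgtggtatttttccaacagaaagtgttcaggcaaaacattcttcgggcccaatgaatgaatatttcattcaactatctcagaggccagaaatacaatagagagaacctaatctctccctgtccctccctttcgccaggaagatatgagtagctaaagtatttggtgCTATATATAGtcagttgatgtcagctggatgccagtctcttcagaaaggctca
Casq2: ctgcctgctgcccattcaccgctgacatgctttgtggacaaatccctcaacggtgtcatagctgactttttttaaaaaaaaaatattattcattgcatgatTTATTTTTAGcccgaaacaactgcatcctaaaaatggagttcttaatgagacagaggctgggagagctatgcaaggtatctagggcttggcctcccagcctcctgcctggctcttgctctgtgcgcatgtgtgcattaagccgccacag
A match of letters is a description of the sequence. How alike both genes were over the arrays is given with the correlations.

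Levels are log2 of the background-subtracted spot signal over the 75th percentile of the same array, so 0 is the brightness that 75% of the probe spots do not exceed, and levels are compared between arrays for the same probe or the same set of probes, since the brightness of different probes is not on a common scale. A spot counts as detected when the scanner software called it well above background. Mb was detected on 35 of 35 arrays, Myh6 on 27, Tnnt1 and Myh7 on 26, Casq2 on 21, Ankrd2 on 19, Myoz2 on 17, and Tnni1 and Csrp3 on 16. No member was saturated. All 9 passed the filter on dim probes, which 18996 probes passed, and a member detected mostly in its brighter groups passed through them. Tnni1 and Myoz2, for example, were detected on 5 of 5 arrays in BPA25 and in control, and on at most 2 of 5 in any other group.

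The 10 slides differed in ways that touch every result. The 4 arrays of slide 3 (replicate 2 of BPA25+genistein, BPA25, BPA250 and control) had 93.48% to 96.49% of their probe spots detected, against 65.55% to 72.64% on slides 4 and 5 and 32.54% to 50.64% on the other 25 arrays. Results are therefore also given without slide 3, that is on 31 arrays. Slides 3, 4 and 5, and no other slide, were scanned on the last of the 5 scan days. Their high share of detected spots cannot be told apart from that day. Levels on slide 3 are relative to a higher 75th percentile: a signal of 374.8 to 876, against 30.37 to 247.1 on the other 25 arrays. Fat cell genes were bright on all arrays: the mean of 7 white adipocyte markers lay between 1.88 and 4.61. On slide 3 that mean was low, at 2.47 in control, 2.51 in BPA25, 2.2 in BPA250 and 1.88 in BPA25+genistein. The mean of the luminal epithelial markers lay between -3.6 and 1.09.

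Tnni1, the inhibitory troponin of slow fibres, shows the common pattern. Its level was -3.44, 1.07, -3.13, -2.09 and -3.46 in the BPA25+genistein group and -4.52, -2.65, -4.14, -2.44 and -4.66 in the BPA25+I3C group, against 2.22, -0.66, 0.26, 1.49 and 1.35 in the BPA25 group. It was -2.92, -0.83, -2.71, -2.96 and -4.24 in the BPA250+genistein group and -1.43, -3.55, -2.36, -4.82 and -4.3 in the BPA250+I3C group, against -3.99, -0.07, -1.41, -4.33 and -3.86 in the BPA250 group. The control group had 1.01, -1, 0.96, -0.59 and 0.14. Tnni1 was detected on all 10 BPA25 and control arrays and on none of the 5 BPA25+I3C arrays. In the BPA25+genistein group the slide 3 array alone detected it, and that array reached the level of the BPA25 arrays.

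Tnnt1, slow troponin T, had a smaller span than Tnni1. It ranged from -4.13 to 0.93 with BPA25+genistein and from -3.51 to -0.89 with BPA25+I3C, against -0.95 to 2.46 with BPA25. It ranged from -3.44 to -0.65 with BPA250+genistein, from -3.54 to -0.12 with BPA250+I3C, from -2.26 to -0.34 with BPA250 and from -1.41 to 1.25 in control. Every pair of groups overlapped for Tnnt1, and BPA25+I3C met BPA25 only through the slide 3 array of BPA25.

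Myh7, the slow myosin, spanned the widest range. It was -4.08, 2.88, -4.41, -1.83 and -0.83 with BPA25+genistein and -2.02, -1.55, -3.79, 0.56 and -1.72 with BPA25+I3C, against 4.25, -0.01, 2.7, 4.13 and 3.95 with BPA25. It was 0.67, 0.02, -2.55, -4.01 and -2.96 with BPA250+genistein and 1.28, -4.33, -2.02, -3.3 and -4.45 with BPA250+I3C, against -1.8, 0.82, 0.07, -4.82 and -0.2 with BPA250. The control arrays had 2.9, 0.05, 2.53, 1.02 and 2.41. The low values of BPA25 and control (-0.01 and 0.05) were both from slide 3, as was the one high value of BPA25+genistein. Myh6 ranged from -3.88 to 2.52 with BPA25+genistein and from -3.88 to 0.59 with BPA25+I3C, against 0.52 to 4.16 with BPA25. It ranged from -2.61 to 0.42 with BPA250+genistein, from -4.48 to 1.32 with BPA250+I3C, from -4.57 to 0.74 with BPA250 and from 0.18 to 2.76 in control. Over the arrays its r with Myh7 was 0.987. Given the shared bases, the 2 probes are not independent readings.

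Myoz2 binds calcineurin at the Z-disc of slow and cardiac muscle. It was -3.99, -5.78, -3.67 and -5.09 with BPA25+genistein, where the slide 3 spot was marked an outlier and left out, and -4.87, -2.28, -4.65, -4.4 and -5.05 with BPA25+I3C. The BPA25 arrays had 0.29, -0.84, -1.68, -0.65 and -0.8, and the control arrays -1.2, -0.76, -1.22, -2.29 and -1.48. The spot left out was well above background at 0.41, above every BPA25 array. BPA25+I3C did not overlap BPA25, and BPA25+genistein did not as long as that spot is left out. At the high dose Myoz2 was -3.55, -1.29, -2.8, -3.31 and -4.7 with BPA250+genistein and -2.93, -4.22, -3.3, -5.26 and -3.67 with BPA250+I3C, against -4.29, -0.92, -1.65, -4.56 and -2.71 with BPA250, so that all 3 groups overlapped. Csrp3, the other Z-disc member, ranged from -4.18 to 0.91 with BPA25+genistein and from -4.32 to -1.67 with BPA25+I3C, against -1.3 to 1.99 with BPA25. It ranged from -3.93 to -1.34 with BPA250+genistein, from -4.64 to -0.27 with BPA250+I3C, from -4.1 to -0.47 with BPA250 and from -1.54 to 1.77 in control. The BPA25+I3C arrays lay wholly below the BPA25 arrays for Csrp3, by a small gap.

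Ankrd2 ranged from -3.7 to -0.4 with BPA25+genistein and from -4.74 to -1.37 with BPA25+I3C, against -1.49 to 0.31 with BPA25. Its range was -3.84 to -1.23 with BPA250+genistein, -4.18 to -1.93 with BPA250+I3C, -3.85 to -0.7 with BPA250 and -2.06 to -0.6 in control. Its BPA25+I3C and BPA25 arrays overlapped through replicate 2 of each.

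Mb is the one member read above background on every array, so its values carry no floor. Mb was 0.09, 3.47, 0.23, 1.45 and -0.57 with BPA25+genistein and -0.08, 0.54, -0.67, 1.36 and -0.61 with BPA25+I3C, against 3.95, 0.52, 2.05, 4.12 and 2.51 with BPA25. Mb was 1.19, 1.96, 0.57, -0.03 and -1.14 with BPA250+genistein and 1.78, 0.39, 0.22, -0.22 and 0.12 with BPA250+I3C, against 0.59, 1.44, 1.16, 1.43 and 0.17 with BPA250. The control arrays had 3.22, 1.14, 3.54, 2.12 and 3.4. Most high values were those of BPA25 and control, whose slide 3 arrays were low, while the slide 3 array of BPA25+genistein was high at 3.47. The white adipocyte mean was low on slide 3 too. The BPA250 arrays kept within a narrow band below most of the BPA25 and control values.

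Casq2 departed most from the others. It was -3.72, -0.99, -1.17, -3.9 and -2.43 with BPA25+genistein and -4.01, -3.6, -2.76, -1.52 and -1.86 with BPA25+I3C, against 0.13, -1.62, -1.51, -1.45 and -1.4 with BPA25. It was -2.61, -2.55, -1.01, -2 and -1.96 with BPA250+genistein and -3.68, -4.08, -2.73, -5.07 and -3.45 with BPA250+I3C, against -1.88, -1.33, -1.93, -2.93 and -1.87 with BPA250. The control arrays had -1.98, -2.28, -1.14, -2.76 and -1.28. BPA250 and control covered much the same range for Casq2, and the BPA250+I3C arrays were low.

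**Figure D1:**
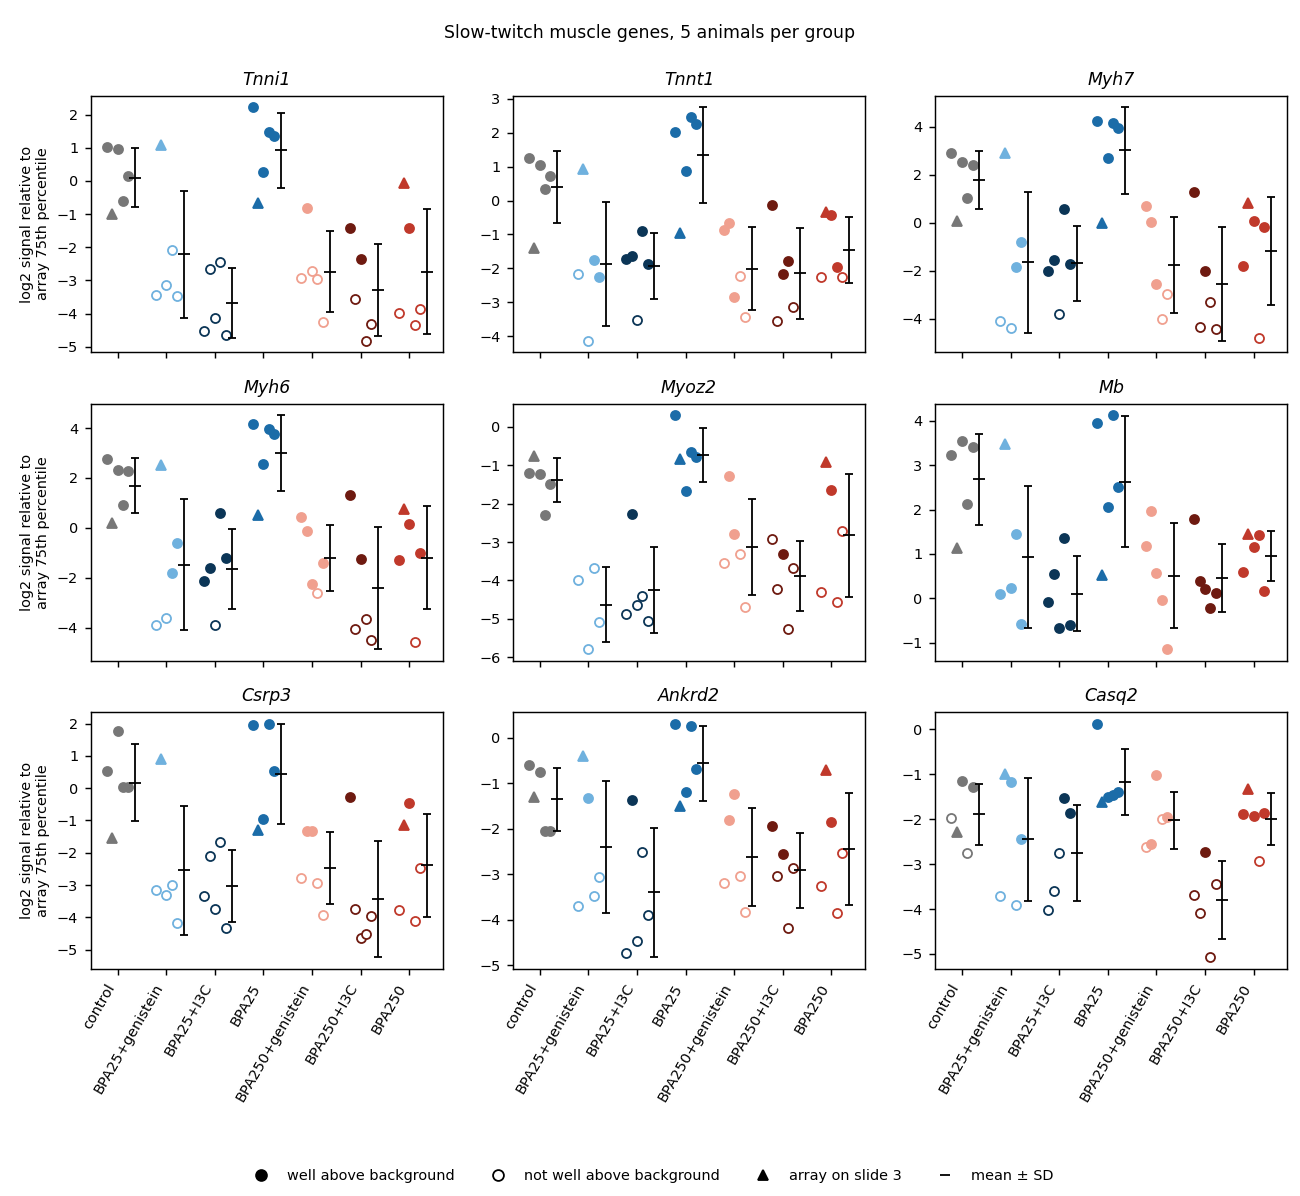
Level of each of the 9 slow-twitch genes (1 panel per gene, log2 over the 75th percentile of the array) on every array of the 7 groups, with each diet group left of the BPA group it is set against. Filled points are spots well above background, open points are not, triangles are slide 3 arrays, and black marks are group means with SD. Tnni1 averaged -2.21 with BPA25+genistein and -3.68 with BPA25+I3C, against 0.93 with BPA25, and 8 of 9 genes had their highest mean in BPA25. That order follows in part from the choice of genes.

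Ordered by group mean, BPA25 was highest for 8 members and control for Mb. Control came next for those 8. The genes were chosen as lower than BPA25 with either diet and lower than control with BPA250. High places of BPA25 and control therefore follow in part from that choice. The BPA250 group was in the third place for 7 members and BPA25+genistein for 2. The lowest mean was that of BPA250+I3C for 5 members, of BPA25+I3C for 3 and of BPA25+genistein for 1 (Myoz2). In all 54 pairs of neighbours in these orders the arrays of both groups overlapped, so no step between neighbours exceeds their spread.

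Genistein added to BPA25 went with lower values of all 9 members. The log2 fold change was -4.66 ± 1.22 (SE) for Myh7, -4.46 ± 1.10 for Myh6, -3.2 ± 0.76 for Tnnt1 and -3.14 ± 0.83 for Tnni1. It was -3.9 ± 0.67 for Myoz2, whose level averaged -4.63 ± 0.98 with BPA25+genistein (SD, n = 4, none of them detected) and -0.74 ± 0.70 with BPA25 (SD, n = 5). By the bound described with the processing, Myoz2 was at least 3.95-fold lower on these 4 arrays. That bound holds for the signal as processed here: over all fits run, the log2 fold change of Myoz2 ran from -4.22 to -1.03. With the outlier spot of slide 3 kept, the BPA25+genistein mean was -3.62 ± 2.41 (SD, n = 5), and the log2 fold change of Myoz2, BPA25+genistein against BPA25, was -2.89 ± 0.80. It was -2.99 ± 0.89 for Csrp3 and -1.84 ± 0.66 for Ankrd2, and smallest for Mb (-1.7 ± 0.67) and Casq2 (-1.27 ± 0.54). The median over the members was -3.14, against 0.03 over all probes, 47% of which were lower. In the limma fit over all probes 1 probe passed at an adjusted p under 0.05 (0.00526% of the probes tested), and it was Myoz2. With outlier spots kept, or with no filter on dim probes, none passed. Without slide 3 the median was -4.29, and 26 probes passed (0.137%), of which 7 were members. Leaving out BPA25+genistein replicate 2 alone, 11 probes passed, of which 5 were members (Tnni1, Tnnt1, Myh7, Myh6 and Myoz2).

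The 2 slides that held both of these groups gave opposite signs. On slide 7 all 9 members were lower with genistein, with a median difference of -3.73. On slide 3 none of the 8 measured members was lower, with a median of 1.94. With slide as a fixed block in the fit the members' median was -2.53 and no probe passed, and with slide as a random block it was -2.68 and 1 probe passed. With normexp background correction the median was -1.06, on the authors' normalised values it was -1.57, and no probe passed with either.

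I3C added to BPA25 also went with lower values of all 9 members. The log2 fold change was -4.62 ± 0.83 for Tnni1, -4.71 ± 1.22 for Myh7, -4.63 ± 1.10 for Myh6 and -3.51 ± 0.64 for Myoz2. It was -3.48 ± 0.89 for Csrp3, -3.26 ± 0.76 for Tnnt1, -2.84 ± 0.66 for Ankrd2, -2.52 ± 0.67 for Mb and -1.58 ± 0.54 for Casq2. Tnni1 and Csrp3 were detected on no BPA25+I3C array. By the bound described with the processing, Tnni1 was at least 11.9-fold lower with BPA25+I3C and Csrp3 at least 7.06-fold lower. These bounds hold for the signal as processed here: over all fits run, the log2 fold change of Tnni1 ran from -5.27 to -1.85. The median over the members was -3.48, against 0.12 over all probes, 36% of which were lower. Of all probes 2 passed (0.0105%), Tnni1 and Myoz2, and none passed with outlier spots kept or with no filter on dim probes. Without slide 3, 10 probes passed (0.0526%), 5 of them members, and the median was -3.83. The groups did not overlap for Tnni1, Myoz2 and Csrp3, all lower with BPA25+I3C, while of all probes 0.253% lay wholly lower and 0.463% wholly higher. For genistein at BPA25 the groups did not overlap for Myoz2 alone, and there only with its outlier spot left out, while 0.116% of all probes lay wholly lower and 0.174% wholly higher. Slide 9, the slide with both BPA25+I3C and BPA25, had all 9 members lower, with a median of -3.13, and its BPA25+I3C array is replicate 4. With slide as a fixed block the median was -2.82, with normexp correction -1.44 and on the authors' values -2.01, and no probe passed in these 3 fits. With slide as a random block it was -2.91 and 3 probes passed.

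BPA250 against control, the third comparison behind the choice of genes, had all 9 members lower as well. The log2 fold change was -2.97 ± 1.22 for Myh7, -2.87 ± 1.10 for Myh6, -2.84 ± 0.83 for Tnni1, -2.56 ± 0.89 for Csrp3 and -1.84 ± 0.76 for Tnnt1. It was -1.73 ± 0.67 for Mb, -1.44 ± 0.64 for Myoz2, -1.08 ± 0.66 for Ankrd2 and -0.1 ± 0.54 for Casq2. The median was -1.84, against -0.03 over all probes, 57.8% of which were lower. No probe of the array passed in this comparison (0% of 18996, with 183 probes at an unadjusted p under 0.05), and none did without slide 3, where the members' median was -2.57. The groups overlapped for all 9 members, and of all probes 0.232% lay wholly lower and 0.0684% wholly higher. Within slides the members split: 8 of 9 were lower on slide 1 (median -3.49) and 9 of 9 on slide 7 (median -3.34), but 1 of 9 on slide 3 (median 0.61).

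BPA25 against control set the lower dose alone against the negative control. BPA25 was the reference of both diet comparisons behind the choice of genes, and control that of BPA250. The choice can therefore have shifted these values, which describe the members. Of the members 8 were higher and Mb was nearly level, with log2 fold changes from -0.05 ± 0.67 (Mb) to 1.3 ± 1.10 (Myh6). Tnni1 differed by 0.83 ± 0.83 and Tnnt1 by 0.95 ± 0.76. None passed (limma, adjusted p = 1 for each member, 0% of all probes called, 374 at an unadjusted p under 0.05). The members' median of 0.80 stands against 0.02 over all probes, 46.9% of which were lower. The members' median was 1.35 on slide 1, 0.24 on slide 3, 0.58 on slide 7 and 1.2 on slide 9. The groups overlapped for all 9 members, and of all probes 0.153% lay wholly lower and 0.0895% wholly higher with BPA25.

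At BPA250 no member passed the test with either diet. With genistein the log2 fold changes lay between -0.58 ± 1.22 (Myh7) and 0 ± 0.83 (Tnni1), with adjusted p = 1 in limma for each and 0% of all probes called, though 791 had an unadjusted p under 0.05. Their median was -0.18, against 0.06 over all probes, and 0.17 without slide 3, where 3 of 9 members were lower instead of 8. With I3C they lay between -1.81 ± 0.54 (Casq2) and -0.48 ± 0.66 (Ankrd2), with a median of -1.03 against 0.23 over all probes. The limma adjusted p of the members was 0.776 to 0.811 there, and 0% of all probes were called, with 792 at an unadjusted p under 0.05. Casq2 averaged -3.8 ± 0.86 with BPA250+I3C and -1.99 ± 0.58 with BPA250 (SD, n = 5 each). For all 9 members the groups overlapped in both comparisons. Of all probes, 0.179% lay wholly lower and 0.258% wholly higher with BPA250+genistein, and 0.253% wholly lower and 0.842% wholly higher with BPA250+I3C. Both comparisons share their BPA250 arrays with the comparison of BPA250 against control, in which the members were low already. Slides 5 and 10 held BPA250+genistein with BPA250, and the members' median was -1.15 and -1.3 there. Slide 1 held BPA250+I3C with BPA250, and 1 of 9 members was lower on it (median 2.12), against 9 of 9 in the pooled comparison.

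The difference of a diet's log2 fold change between doses (BPA250 minus BPA25) lay between 1.23 and 4.45 over the members for genistein. For I3C it lay between -0.24 (Casq2) and 4.05. No probe on the array passed that test for either diet (0% of 18996, with 238 probes for genistein and 594 for I3C at an unadjusted p under 0.05). It contains the contrasts behind the choice of genes, so these values describe the members. Tnni1, Myoz2, Csrp3 and Ankrd2 were each detected on 2 of 5 BPA250 arrays. For those genes a further fall with a diet at BPA250 could hardly be read.

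**Figure D2:**
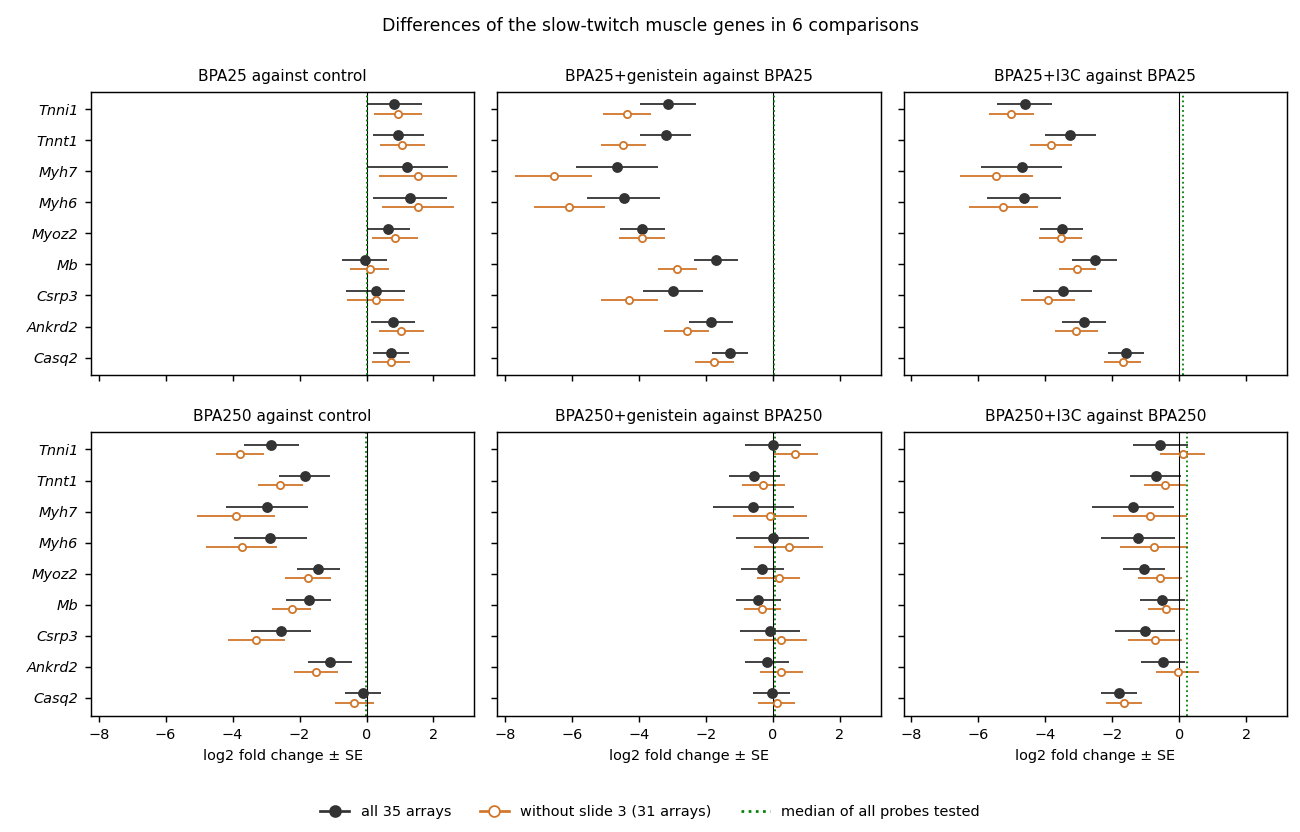
Log2 fold change with SE of the 9 slow-twitch genes in 6 comparisons, 1 panel each, over all 35 arrays (dark points) and without slide 3 (31 arrays, open orange points), with a dotted line at the median of all probes. In the BPA25+I3C panel all genes lie below 0, from -4.71 to -1.58, and in the BPA250+genistein panel they lie between -0.58 and 0.

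The members went up and down together over the 35 arrays. Pearson's r over the 36 pairs of members ran from 0.437 to 0.987 with a median of 0.827, and after taking out the mean of each slide from 0.482 to 0.982 with a median of 0.854. The arrays share group, slide and scaling, and these values are descriptions. The highest r was that of Myh6 and Myh7. Casq2 had the lowest median r with the others, at 0.571. Myoz2 and Casq2, the 2 genes with a MEF2 element in the window, had an r of 0.502 over 34 arrays, and of 0.527 within slides. Pairs with Myoz2 have 34 arrays because of its missing spot.

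**Figure D3:**
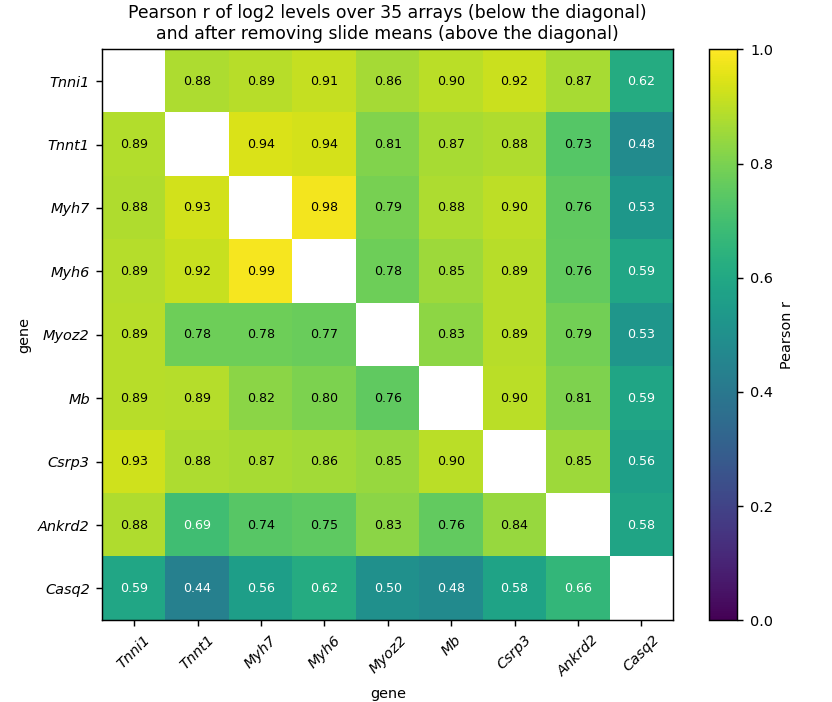
Pearson's r between the levels of the 9 slow-twitch genes over 35 arrays, below the diagonal as measured and above it after removing each slide's mean. Myh6 and Myh7 reach 0.987, and the row and column of Casq2 are the darkest, with a median r of 0.571.

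Among 12327 probes with a gene name, the pattern most like the mean of the members was that of Tnnc1, the troponin C of slow and cardiac muscle, with r = 0.966 (Spearman's rho 0.937, and 0.96 within slides, 35 arrays). Myh2, the myosin of oxidative fast fibres, came next with r = 0.958. A probe for Myl2, the regulatory light chain of slow and ventricular myosin, had 0.924, Ckmt2 (mitochondrial creatine kinase of muscle) 0.92 and Myh3 (embryonic myosin) 0.916. Lmod2 (0.895), Tceal7 (0.889), Mybpc2 (0.872), Smtnl1 (0.869) and Ttn (0.868) complete the first 10, of which 8 stayed in the first 10 within slides, where Myl3 and Nrap came in. The median r over all these probes was -0.155, and 5 probes exceeded 0.9. In the order BPA25 against control, BPA250 against control, genistein and I3C at BPA25, the log2 fold change of Tnnc1 was 0.5, -2, -2.34 and -2.94 (SE 0.64 each), and it did not pass in any comparison (limma, lowest adjusted p = 0.280).

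Other genes of slow and oxidative muscle were 20 in number, of which 19 had a probe and 15 passed the filter. With genistein at BPA25, 16 of the 19 were lower and 3 higher, with a median of -0.84. With I3C at BPA25, 15 were lower and 3 higher (median -0.89), and in BPA250 against control 17 were lower and 2 higher (median -0.6). The medians of these 19 at BPA250 were -0.03 with genistein and -0.37 with I3C, and the median of BPA25 against control was 0.16. None of the 15 tested passed in any of these 6 comparisons in limma. The 4 brightest were Tpm3 (slow tropomyosin, also made outside muscle), Atp2a2 (a calcium pump found in many cells), Fhl1 and Cox6a2. In that order their log2 fold changes were -1.02, -0.28, -0.15 and -0.8 with genistein at BPA25, 0.06, 0.16, 0 and -0.83 with I3C at BPA25, and -0.1, -0.13, -0.44 and -1.69 in BPA250 against control. Myl3, the slow essential light chain, was lower by more, at -4.02 ± 1.20 with I3C and -3.3 ± 1.20 with genistein at BPA25.

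Genes of fast fibres were lower in the same comparisons. Of 18 listed, 14 had a probe and all of these passed the filter. With genistein at BPA25 all 14 were lower (median -3.92), with I3C at BPA25 all 14 (median -3.27), and in BPA250 against control all 14 (median -2.71). At BPA250, 13 of 14 were lower with genistein (median -1.23) and 13 with I3C (median -2.33). In BPA25 against control 9 were lower and 5 higher (median -0.10), where the slow members had a median of 0.80. None of the fast genes passed in limma in any of the 6 comparisons. The brightest 4 were Tnni2 (fast troponin I), Eno3 (muscle enolase), Actn3 (fast alpha-actinin) and Tnnt3 (fast troponin T), and their log2 fold changes with genistein at BPA25 were -4.67 ± 1.43, -2.96 ± 1.01, -3.88 ± 1.44 and -3.53 ± 1.12. Whether the slow and the fast genes differed in these comparisons was not tested.

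The arrays where slow and fast genes parted were looked for after their values had been seen. The mean of the members minus the mean of the fast genes gave a difference for each array, which lay between -4.72 and -0.13 on 33 of the 35. BPA25+I3C replicate 4 had a fast mean of 6.07, the highest of all arrays, and a slow mean of -1.22, a difference of -7.29. On this array 11 of the 14 fast genes had their highest value of all 35 arrays, with Tnni2 at 9.62 and Myh4 at 8.33. The members ranked between 11 and 26 of 35 there, and 5 of the 9 were detected. Tnni1 (-2.44), Csrp3 (-1.67), Ankrd2 (-2.52) and Myoz2 (-4.4) were not. Control replicate 5, on the same slide, had a fast mean of 5.83, a slow mean of 0.46 and a difference of -5.37, and its members ranked between 5 and 18. Both arrays stood at the top for fast fibre genes and lower in the order for the members. The luminal epithelial mean of BPA25+I3C replicate 4 was -3.6, the lowest of all arrays. Without that array the members' median for I3C at BPA25 was -3.51, and 26 probes of all passed instead of 2, of which 2 were members.

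**Figure D4:**
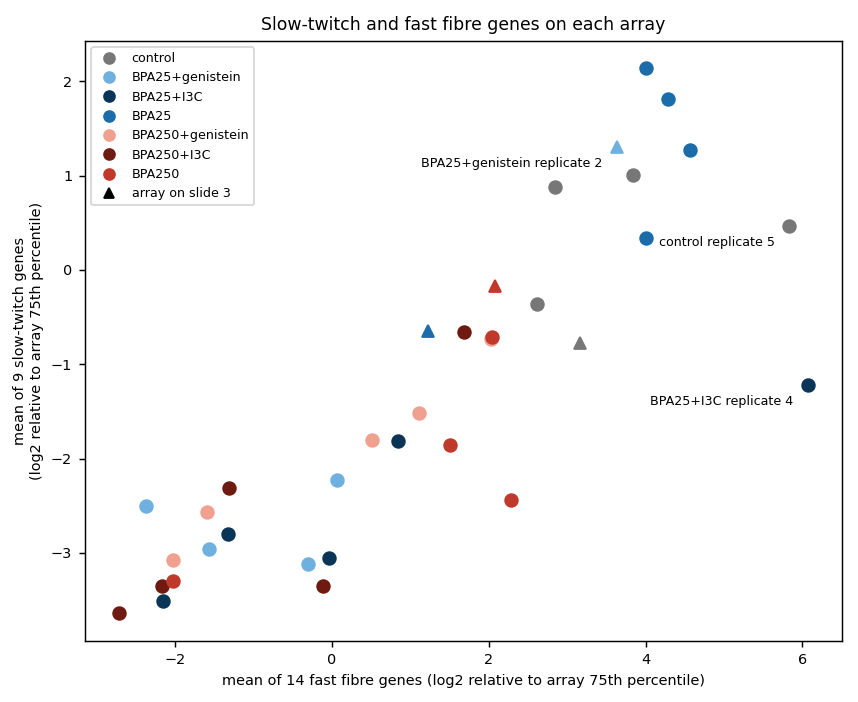
Mean level of the 9 slow-twitch genes (vertical) against the mean of 14 fast fibre genes (horizontal) on each of 35 arrays, coloured by group, both in log2 over the 75th percentile of the array. BPA25+I3C replicate 4 lies far right at 6.07 with a slow mean of -1.22, control replicate 5 at 5.83 and 0.46, and BPA25+genistein replicate 2 (slide 3) stands above its group with a slow mean of 1.3. That last mean leaves out Myoz2, whose spot was set to missing there.

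Over groups, the mean of the members per array was -1.9 ± 1.82 with BPA25+genistein and -2.48 ± 0.94 with BPA25+I3C, against 0.98 ± 1.14 with BPA25 (SD, n = 5 each). It was -1.94 ± 0.91 with BPA250+genistein and -2.66 ± 1.23 with BPA250+I3C, against -1.7 ± 1.27 with BPA250 and 0.24 ± 0.78 in control. On BPA25+genistein replicate 2 the mean leaves out Myoz2, whose spot was set to missing there. The fast mean was -0.11 ± 2.31 with BPA25+genistein and 0.68 ± 3.23 with BPA25+I3C, against 3.62 ± 1.36 with BPA25. It was 0.01 ± 1.75 with BPA250+genistein and -0.92 ± 1.76 with BPA250+I3C, against 1.18 ± 1.81 with BPA250 and 3.66 ± 1.30 in control. The spread of the fast mean in BPA25+I3C rests on replicate 4.

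Heart muscle shares several of the members, among them Myh6, Myh7, Csrp3 and Casq2. Of 9 cardiac markers with a probe, 1 passed the filter (Tnnt2), and Nppa, Nppb, Nkx2-5 and Gata4 were detected on no array outside slide 3. The log2 fold change of Tnnt2 was -1.97 ± 0.62 with genistein and -1.44 ± 0.62 with I3C at BPA25. In BPA250 against control it was -1.3 ± 0.62. Tnnt2 did not pass in any of the 6 comparisons in limma. The mean of the 9 cardiac markers ranged from -4.41 to -2.98 with BPA25+I3C, from -3.96 to -2.34 with BPA25+genistein, from -4.8 to -1.76 with BPA25, from -3.63 to -2.75 with BPA250+genistein, from -4.88 to -3.08 with BPA250+I3C, from -4.51 to -2.09 with BPA250 and from -4.5 to -2.08 in control. Another probe for alpha-cardiac myosin, which the array describes as lying in intron 1, was detected on 10 arrays (6 outside slide 3) and had an r of 0.05 with the Myh6 probe.

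Of embryonic and perinatal myosins and myogenic factors, 8 of 9 had a probe and 4 passed the filter. Their median was -0.78 with genistein and -0.86 with I3C at BPA25 and -0.95 in BPA250 against control. Regulators of the slow programme (12 of 15 with a probe, 5 past the filter) had medians of 0.45, 0.01 and 0.09 in these 3 comparisons, and 11 of the 12 were higher with genistein at BPA25. Genes of the neuromuscular junction were mostly too dim to read: 1 of 8 (Ache) passed the filter. No tested gene of these 3 lists passed in any of the 6 comparisons in limma.

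Markers of other cell types that the piece could hold were looked up in the 3 comparisons behind the choice of genes. The members were chosen as lower there, so a larger difference of the members than of these markers restates that choice. In the order genistein at BPA25, I3C at BPA25 and BPA250 against control, the median log2 fold change was -0.39, 0.06 and -0.05 for white adipocytes (7 of 7 genes) and -0.13, 0.35 and -0.06 for fibroblasts (5 of 5). It was 0.03, -1.3 and -0.23 for luminal epithelium (6 genes, 5 past the filter) and -1.54, -0.7 and -0.27 for Schwann cells (5 of 5), whose myelin sheathes nerves. For basal epithelium (4 genes, 3 past the filter) it was -0.35, -0.89 and 0. All 5 Schwann genes were lower with genistein at BPA25, and all 6 luminal and all 4 basal genes with I3C at BPA25. The part of nerve or epithelium in the members' differences was not tested.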

How the data were processed

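Every scan was deposited as the spot-level output of Agilent Feature Extraction 9.5.3.1, per the submitters' processing notes. Per the file headers, the processed signal is an intensity with local background subtracted and detrended. The deposited flag columns hold 0 or 1 for outlier, saturated and above-background spots (other). The authors also deposited a table of values on a log2 scale, normalised by a method not given in the sources used here. Its column medians ran from 6.55 to 6.58, 194 values were missing, and its r with the signal used here was 0.827 to 0.976 over arrays for the members. It served as an alternative, and 0 of its columns were left unmapped.

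The processed signal was taken to log2 relative to each array's 75th percentile over non-control spots. Outlier spots were set to missing, and 263 probes spotted 10 times were averaged. The 1639 control spots were left out. Probes were kept if 4 or more arrays in any group of 5 read well above background, with at most 5 missing values. One model with a mean for each group took in all 35 arrays (R 4.3.3, limma 3.58.1, data.table version 1.17.8), with empirical Bayes variances and Benjamini-Hochberg adjustment over 18996 probes per comparison, and a probe was called at an adjusted p under 0.05. Each probe was fitted on its own. Values after ± are SE for fold changes and SD for levels. P-values measure the spread between these samples, and the number of arrays limits the precision. The procedure was tested on simulated data, drawn independently for each probe with no slide effect and no background floor. That test does not show how the calls behave under slide effects or near background. A bound ("at least") sets the brighter group's mean against, per array of the dimmer group, the higher of the lowest signal well above background and the probe's own signal. That lowest signal is taken over all probes of the array and is not a detection limit of the member's probe. Csrp3 on BPA25+I3C replicate 4, for example, was not detected at -1.67, where the lowest signal was -2.82.

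The members and the gene lists were chosen with earlier results of these data known. All members were described. Other genes were named as the 10 most like the members' mean over 35 arrays, or as the 4 brightest of a list, and a gene named beyond these was chosen after its values were seen. Gene positions and promoters are from RefSeq (GRCr8). The probes' own positions, in an older build, are not printed. Replicate numbers are shared by the groups. Deviations of same-numbered arrays from their group means correlated over 0.1 in all 5 pairs for BPA25 against control (0.135 to 0.909) and BPA250+genistein against BPA250 (0.232 to 0.664), and elsewhere the lowest pair lay between -0.196 and 0.058.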

Additional observations from a re-analysis of the deposited data

Results flagged for a closer look

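Of 63 sets of arrays (9 genes in 7 groups, 62 sets of 5 and 1 of 4), 4 held 1 array whose gap to its nearest neighbour was large for the range of the set, by Dixon's 95% criterion. Chance alone gives about 1 in 20 such sets. Myoz2 in BPA25+I3C replicate 2 stood at -2.28, above the next value of -4.4. Csrp3 in BPA25+genistein replicate 2, a slide 3 array, stood at 0.91, above the next value of -3.01. Csrp3 in BPA250+I3C replicate 1 stood at -0.27, above the next value of -3.74. Casq2 in BPA25 replicate 1 stood at 0.13, above the next value of -1.4. In each case the array was the highest of its set.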

How the results depend on the processing

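The direction of the members' median was the same under all alternatives run for genistein and I3C at BPA25, BPA250 against control, BPA25 against control and I3C at BPA250. For genistein at BPA250 the median of -0.18 lay near 0 and took either sign. The numbers of probes called were few and unstable. Given as genistein at BPA25 and then I3C at BPA25 (1 and 2 as reported), they were 0 and 0 with normexp background correction (members' medians -1.06 and -1.44), 0 and 0 on the authors' normalised values (medians -1.57 and -2.01), 0 and 0 with no filter on dim probes, with outlier spots kept, with slide as a fixed block and with a variance trend, 0 and 1 with the 75th percentile of the probes detected on all arrays, 1 and 1 with quantile normalisation, 1 and 3 with slide as a random block, 2 and 8 with scan day as a block, 26 and 10 without slide 3, and 19 and 15 without slides 3, 4 and 5, a setting chosen after seeing the data. With the replicate block they were 1 and 4. The block changed no call in BPA25 against control and genistein at BPA250, where the numbers paired the arrays, nor in any other comparison of 2 groups but I3C at BPA25. In the F test, any difference among the 7 groups, called for 0 probes as reported, was called for 1 with quantile normalisation, 2 with a stricter filter, 1 with 1 probe per gene, 4 with slide as a fixed block, 162 with slide as a random block (consensus correlation 0.582), 10 with scan day, 1 with the replicate block, 31 without slide 3 and 35 without slides 3, 4 and 5. For genistein at BPA250 the count went to 1 on the authors' values and to 83 with slide as a random block, and for I3C at BPA250 to 2 with that block. The dose difference of genistein went to 1 with the 75th percentile of detected probes and to 2 without slides 3, 4 and 5, and that of I3C to 1 with slide as a fixed block, 3 with it as a random block and 4 without slides 3, 4 and 5. BPA250 against control went to 1 without slides 3, 4 and 5. The cause was not tested. Leaving out each array in turn, the counts ran from 0 to 76 for any difference, 0 to 11 for genistein and 0 to 26 for I3C at BPA25, and were 0 in the other comparisons. The medians ran from -3.9 to -2.8 and from -3.83 to -3.1 for genistein and I3C at BPA25, -2.29 to -1.62 for BPA250 against control, 0.5 to 1.03 for BPA25 against control, -0.54 to 0.17 for genistein and -1.46 to -0.55 for I3C at BPA250. Signals near background limit the folds of the dim members.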
